A study of Mus musculus with 16 samples.

Results

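The genes described here act in fructose metabolism and in the making and release of glucose by the small intestine. They are Khk, Pck1, Fbp1, G6pc and Slc37a4. They were chosen by name, with earlier results of these data known. The 5 were found among the 24420 rows of each of 2 tables of expression values. All 5 passed the filter on low values in both. The tables came from 3' tag RNA sequencing of mouse small intestine, a method that reads about 1 tag near the end of each transcript whatever its length. The first table held enterocytes, the absorptive cells of the gut lining, from Mfge8 null mice (5 libraries) and WT mice (4 libraries). The second held small intestinal tissue from Cd36 null mice (3 libraries) and WT mice (4 libraries). All mice were labelled as strain C57B6. Mfge8 encodes an integrin-binding glycoprotein that cells secrete. Cd36 encodes a receptor of the cell membrane for long-chain fatty acids. The labels call both alleles KO or null and give no age, sex, diet, feeding state, region of the small intestine or deleted part of either gene.

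Enterocytes meet most of the fructose of a meal first. The transporter GLUT5 takes it up, ketohexokinase (Khk) phosphorylates it, and further enzymes, triokinase among them, turn it into trioses that can be rebuilt into glucose. In gluconeogenesis the cytosolic phosphoenolpyruvate carboxykinase (Pck1) forms phosphoenolpyruvate from oxaloacetate. Fructose bisphosphatase (Fbp1 is the liver form, Fbp2 the muscle form) removes a phosphate on the way back to glucose. In the endoplasmic reticulum the glucose phosphate transporter Slc37a4 and the phosphatase G6pc work as a pair to release free glucose. The small intestine, with liver and kidney, is known to express G6pc.

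Enterocyte libraries held 1618369 to 2459812 reads and tissue libraries 850297 to 1000694. Levels are given as normalised reads, the reads of a gene over the size factor of its library. Over 16 pairs of enterocyte libraries of 1 genotype the chi-square divided by its degrees of freedom was 6.26 to 20.2, far past counting error. Tissue libraries of 1 genotype differed by about the sampling noise (0.987 to 1.117 over 9 pairs, 5 of them past a p of 0.05), so each genotype of that table was counted as 1 sample and given no test. Whether each library is a separate animal is not in the labels, so p-values cover the spread between these libraries only, which may be technical. Mfge8 itself was at 1.64 to 7.50 normalised reads in Mfge8 null and 7.94 to 23.4 in WT enterocytes, and Cd36 at 6.48 to 16.0 in Cd36 null and 111 to 116 in WT tissue. A tag at the end of a transcript need not lie in the deleted part. Enterocyte markers were high in all 16 libraries. Smooth muscle markers summed to at most 9.95 normalised reads in any tissue library. Some genes used by every cell were also near 0 here, so low marker values do not show that a cell type was absent.

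The genes lie on separate chromosomes in the mouse GRCm38 (mm10) build, by the GENCODE annotation. Khk is at chr5:30921431-30931248, Pck1 at chr2:173153048-173159273, G6pc at chr11:101367561-101377903 and Slc37a4 at chr9:44396852-44402968, each on the plus strand. Fbp1 is at chr13:62864753-62888282 on the minus strand. Its sister gene Fbp2 lies 6330 bases away at chr13:62836877-62858422 on the same strand. The only annotated gene that overlaps any of the 5 is the microRNA gene Mir7085, inside Slc37a4 and away from its 3' end.

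Promoters are shown for Fbp1 and Pck1, because they are the genes that passed the threshold for a change in the enterocyte and in the tissue comparison. Each stretch runs from 250 bases before to 50 bases after the transcription start in RefSeq on GRCm38.p6. Both strands were searched for 5 short motifs that are known from promoters of metabolic genes, and capitals mark the matches. The core of the cyclic AMP response element was searched as ACGTCA. Only part of the site of the hepatocyte and gut factor HNF1 was searched, as GTTAAT, and a match is called a partial HNF1 site. The insulin response sequence, known from genes that insulin represses, was searched as CAAAACA. The E-box, which is part of the element read by the sugar-sensing factor ChREBP, was searched as CACGTG. The TATA box, at which the start site is set in many promoters, was searched as TATAAA. The Fbp1 stretch is chr13:62888233-62888532 on the minus strand, and the Pck1 stretch is chr2:173152823-173153122 on the plus strand.
Fbp1 promoter: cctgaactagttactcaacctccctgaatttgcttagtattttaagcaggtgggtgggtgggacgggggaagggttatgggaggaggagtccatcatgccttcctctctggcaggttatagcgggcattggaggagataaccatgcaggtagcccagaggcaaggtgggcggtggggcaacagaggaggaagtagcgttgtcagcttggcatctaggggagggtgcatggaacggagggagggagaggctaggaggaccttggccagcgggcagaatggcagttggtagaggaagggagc
Pck1 promoter: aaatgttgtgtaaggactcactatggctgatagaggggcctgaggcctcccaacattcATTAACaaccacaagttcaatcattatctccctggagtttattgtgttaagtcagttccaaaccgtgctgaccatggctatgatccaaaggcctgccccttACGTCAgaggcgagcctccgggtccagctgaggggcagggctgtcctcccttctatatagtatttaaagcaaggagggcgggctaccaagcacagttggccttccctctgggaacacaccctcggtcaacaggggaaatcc
The Pck1 stretch held a partial HNF1 site 192 bases and a cyclic AMP element core 91 bases before the start. The Fbp1 stretch held none of the 5 motifs. Among the promoters not printed, Khk held an E-box and a partial HNF1 site. G6pc held a partial HNF1 site, an insulin response sequence and a TATA box. Slc37a4 has 3 starts, of which the first pair share a cyclic AMP element core and the third has a TATA box. Of 32851 mouse promoters of this length, 7.51% held the cyclic AMP element core, 7.10% the partial HNF1 site and 6.28% the insulin response sequence. The E-box was in 7.15% and the TATA box in 13.6%, so each match is common and only describes the letters.

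Khk and Pck1 had the highest tag levels of the 5 genes in all 4 groups, Slc37a4 followed, and Fbp1 and G6pc were low. The tables were normalised separately, so levels across them are set side by side, without a test, as mean RPM, the reads of a gene scaled to a common library total. Khk had 380 in Mfge8 null enterocytes, 528 in WT enterocytes, 393 in Cd36 null tissue and 394 in WT tissue. Pck1 had 215, 380, 505 and 307 in the same order. Library ranges of Pck1 were 102 to 334 in Mfge8 null enterocytes and 143 to 785 in WT enterocytes, against 491 to 525 in Cd36 null tissue and 270 to 366 in WT tissue, so neighbouring groups overlapped except that Cd36 null tissue stood above Mfge8 null enterocytes and WT tissue. Fbp1 had 8.66 RPM in Mfge8 null enterocytes, 28.8 in WT enterocytes, 45.2 in Cd36 null tissue and 33.4 in WT tissue. Its library ranges were 4.94 to 10.8, 14.8 to 40.8, 42.9 to 47.0 and 30.6 to 35.8 in the same order. Of the groups of Fbp1, WT enterocytes and WT tissue were the neighbours that overlapped. G6pc had 9.88, 18.7, 28.7 and 28.7 RPM, and Slc37a4 79.6, 108, 98.7 and 99.1, in the same order of groups. For Khk and Slc37a4 the library ranges of all 4 groups overlapped, and for G6pc those of Mfge8 null enterocytes stayed below both tissue groups.

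**Figure D1:**
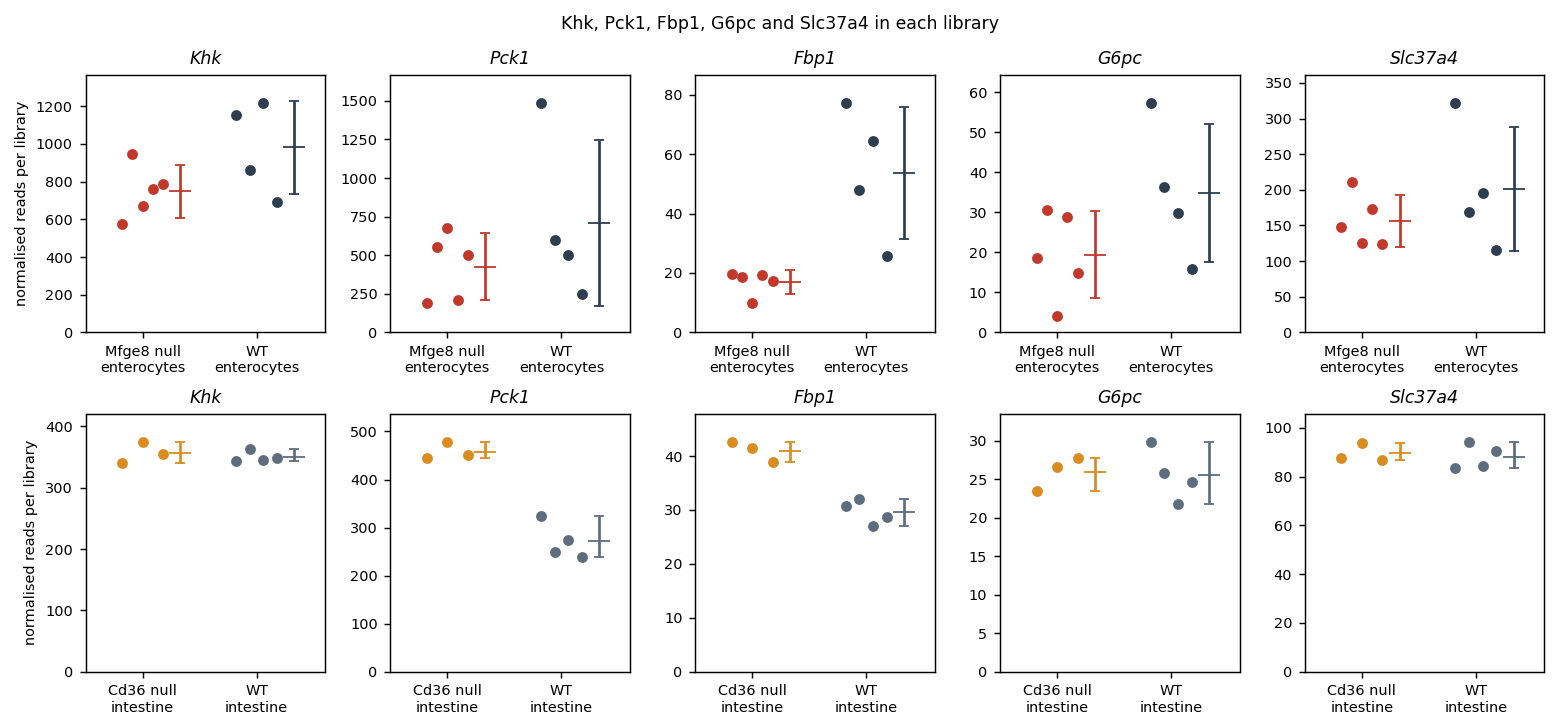
Normalised reads of each gene (vertical axes, from 0) in every library, with Mfge8 null and WT enterocytes in the top row and Cd36 null and WT tissue in the bottom row. Points are libraries. Bars beside them show the mean with the SD (enterocytes) or with the lowest and highest library (tissue). Fbp1 is the panel of the top row in which all 5 null libraries lie below all 4 WT libraries, and Pck1 and Fbp1 are the panels of the bottom row in which all 3 null libraries lie above all 4 WT libraries.

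The enterocyte libraries were compared to find genes whose expression differs when Mfge8 is lost. Fbp1 fell in Mfge8 null enterocytes to 31.5% of the WT level. The other 4 genes had estimates below 0 and did not pass the test. Thus 1 of the 5 passed, where 3.21% of all 9432 genes tested passed in either direction, 1.63% lower and 1.58% higher in null. All 5 estimates lay below 0, as did 49.9% of all genes tested.

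Fbp1 had 19.6, 18.6, 9.99, 19.3 and 17.2 normalised reads in Mfge8 null enterocytes (replicates 1 to 5), against 77.2, 47.8, 64.3 and 25.8 in WT enterocytes (replicates 1 to 4). All null libraries lay below all WT libraries. WT 4 was the closest to the null libraries, and null 3 was lower than the other null libraries. The means were 16.9 ± 3.99 in null and 53.8 ± 22.2 in WT enterocytes (SD, n = 5 and 4). On the log2 scale the change was -1.54, standard error 0.31, with a 95% interval of -2.19 to -0.89 (limma on log2(value + 1), adjusted p = 0.0103 over all genes tested). The unadjusted 2-sided exact permutation test gave p = 0.00794, the smallest its 126 splits allow. The values rest on 10 to 21 reads per null library and 26 to 82 per WT library. Of the genes tested, 6.42% had libraries that did not overlap between genotypes, 3.07% with null lower and 3.35% with null higher. The call rested on WT 1, the highest library: without it the change was -1.33 and limma gave an adjusted p of 0.0605.

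Khk, the entry enzyme of fructose, had 573, 947, 672, 759 and 788 normalised reads in Mfge8 null enterocytes, against 1156, 863, 1217 and 691 in WT enterocytes. WT 1 and WT 3 stood above every null library, while WT 4 lay among the null libraries. The means were 748 ± 139 in null and 982 ± 248 in WT. The log2 change of -0.38 (standard error 0.19, 95% interval -0.77 to 0.02) did not pass, with a limma adjusted p of 0.345.

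Pck1 varied more between libraries of 1 genotype than between genotypes. It had 192, 555, 675, 208 and 504 normalised reads in Mfge8 null enterocytes, against 1485, 601, 503 and 249 in WT enterocytes. WT 1 alone exceeded all null libraries, and null 1, null 4 and WT 4 formed the low end. The log2 change was -0.62 (standard error 0.43) and had a 95% interval of -1.54 to 0.30 (limma adjusted p = 0.530). Single libraries moved this estimate widely: it was -0.17 without WT 1, -0.38 without null 1, -0.41 without null 4 and -1.02 without WT 4.

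G6pc and Slc37a4, the partners of glucose release, also overlapped between genotypes. G6pc had 18.6, 30.7, 3.995, 28.9 and 14.8 normalised reads in Mfge8 null enterocytes, against 57.3, 36.4, 29.8 and 15.9 in WT enterocytes. Null 3 was the lowest library of all, on 4 reads, and WT 1 the highest. The G6pc change was -0.93 (standard error 0.47, 95% interval -1.93 to 0.07, limma adjusted p = 0.356), an interval that includes a fall as large as that of Fbp1. Without null 3 the G6pc estimate was -0.49. Slc37a4 had 148, 210, 125, 173 and 125 normalised reads in null, against 321, 169, 196 and 116 in WT enterocytes. WT 1 was again the highest and WT 4 the lowest library. Its change was -0.29 (standard error 0.24, 95% interval -0.81 to 0.22, limma adjusted p = 0.611), and it was -0.03 without WT 1 and -0.52 without WT 4. The unadjusted 2-sided exact permutation tests gave p = 0.143 for Khk, 0.405 for Pck1, 0.175 for G6pc and 0.405 for Slc37a4. In bulk samples fewer cells of a type and less RNA per cell cannot be told apart.

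Fructose bisphosphatase, the carboxykinase and the glucose phosphatase each have a second form. For fructose bisphosphatase the second form, Fbp2, held most of the tags. Fbp2 had 952, 1083, 988, 774 and 759 normalised reads in Mfge8 null enterocytes, against 1394, 1271, 1296 and 1001 in WT enterocytes. Only WT 4 fell within the null range. The log2 change of Fbp2 was -0.45, with a standard error of 0.16 and a limma adjusted p of 0.148. Fbp1 made up 2.02%, 1.69%, 1.001%, 2.43% and 2.22% of the Fbp1 and Fbp2 reads together in null 1 to 5, against 5.25%, 3.63%, 4.73% and 2.51% in WT 1 to 4. The genotypes did not overlap, with WT 4 only just above null 4. The log2 ratio of Fbp1 to Fbp2 was lower by 1.12 in null (difference -1.12, 2-sided exact permutation p = 0.00794, the smallest possible, unadjusted, in a test chosen after the values were seen). In tissue the Fbp1 share was 20.2% to 23.6% in the 3 Cd36 null libraries and 15.5% to 20.4% in the 4 WT libraries, above every enterocyte library, WT included. The exact 95% intervals of single libraries, which cover counting error only, reached from 0.481% to 3.81% in Mfge8 null and from 1.65% to 6.63% in WT enterocytes.

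**Figure D2:**
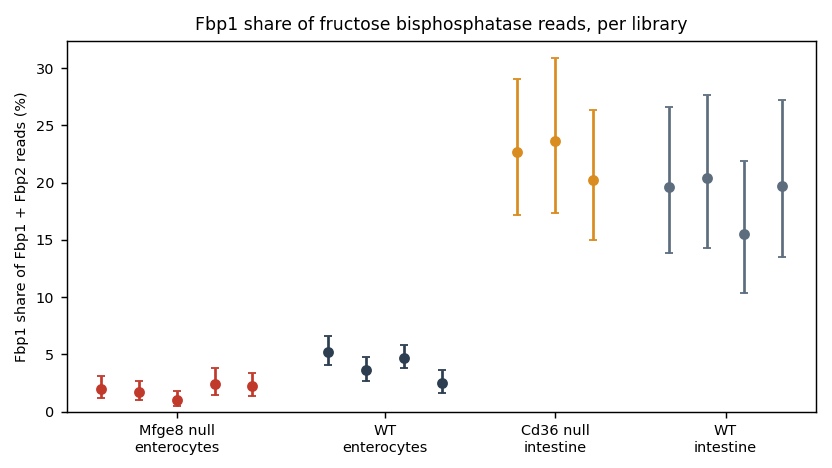
Fbp1 share of the Fbp1 and Fbp2 reads together (vertical axis, percent, from 0) in each of the 16 libraries, grouped along the horizontal axis. Points are libraries, and bars are exact 95% binomial intervals that cover counting error only. Mfge8 null enterocytes lie at 1.001% to 2.43%, WT enterocytes at 2.51% to 5.25%, Cd36 null tissue at 20.2% to 23.6% and WT tissue at 15.5% to 20.4%.

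In the other enzyme pairs the members held the larger mean share in each group. Pck1 held 97.5% ± 2.05 of the Pck1 and Pck2 reads in Mfge8 null and 98.9% ± 1.16 in WT enterocytes, where Pck2 is the mitochondrial form. Its mean share was 98.8% in Cd36 null and 96.6% in WT tissue. G6pc held 64.4% ± 17.9 of the G6pc and G6pc3 reads in Mfge8 null and 80.5% ± 2.91 in WT enterocytes (SD, n = 5 and 4), where G6pc3 is the widely expressed phosphatase. The lowest null library was at 40% and the highest at 87.5%, on both sides of the WT range of 77.6% to 84.2%.

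Markers of position along the small intestine differed between the enterocyte libraries. A regional score was computed as the mean log2 level of Gata4, Onecut2, Fabp1 and Lct (proximal) minus that of Fabp6, Slc10a2, Slc51a and Slc51b (ileal). It was 0.987, 2.12, 0.0238, 3.09 and -0.931 in null 1 to 5, against 3.98, 2.28, 2.40 and 0.761 in WT 1 to 4. Null 3 and null 5 were the most ileal and WT 1 the most proximal library. Fabp6, which binds bile acids in the ileum, was at 34.3 to 6807 normalised reads in null and 43.3 to 8959 in WT enterocytes. With this score as a covariate the Fbp1 change was -1.23 (limma adjusted p = 0.0536) and did not pass. The G6pc estimate was then -0.30, that of Khk -0.24 and that of Pck1 -0.51, and that of Slc37a4 turned to 0.05. Genes of the score themselves passed the genotype test: Onecut2 fell (log2 -1.23, limma adjusted p = 0.0401) and Slc51b rose (log2 0.81, limma adjusted p = 0.00615). The score is thus not independent of genotype, and this fit cannot separate position from genotype. Pck1 did not follow the score within null libraries, since null 3 and null 5, the most ileal, had more Pck1 than null 1 and null 4. Among WT libraries, WT 1 had the highest score and the most Pck1 (1485 normalised reads) and Fbp1 (77.2). WT 4 had the lowest score of the WT libraries and the least of both (249 and 25.8).

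**Figure D3:**
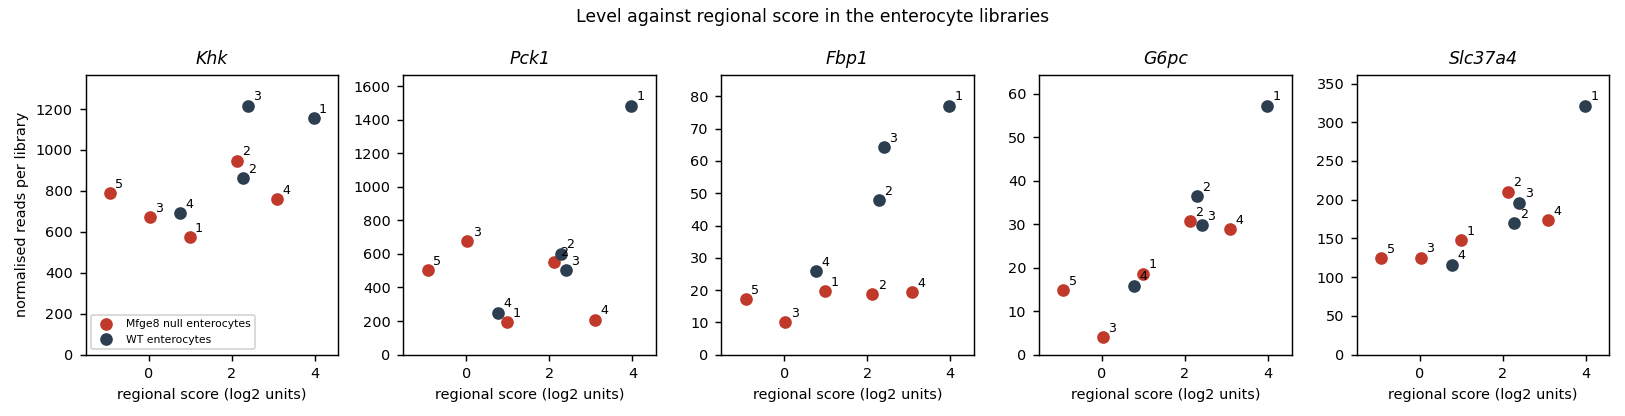
Normalised reads of each gene (vertical axes, from 0) against the regional score (horizontal axes, log2 units, higher is more proximal) in the 9 enterocyte libraries, numbered by replicate. In the Fbp1 panel null libraries stay between 9.99 and 19.6 over scores of -0.931 to 3.09. WT libraries lie higher, from 25.8 in WT 4 to 77.2 in WT 1. In the G6pc and Slc37a4 panels the genotypes are mixed, and WT 1, with a score of 3.98, is the highest library.

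Markers of lymphocytes and plasma cells also differed in summed level between the enterocyte libraries. The 6 T cell and intraepithelial lymphocyte markers summed to 3085 to 7177 normalised reads in null and 1105 to 3272 in WT enterocytes. The 5 B cell and plasma cell markers summed to 204 to 495 in null and 17.5 to 120 in WT, with Cd79a at 0 in every library. The T cell sums overlapped between genotypes and the B cell and plasma cell sums did not. None of the 6 T cell markers passed the limma test, and 1 of 3 tested B cell and plasma cell markers, Jchain, rose. Enterocyte markers summed to 39577 to 68275 in null and 37880 to 56634 in WT enterocytes, so the genotypes overlapped. The part of lymphocytes and plasma cells in the Fbp1 result was not tested. Liver and fat also express several of these genes. The 6 hepatocyte markers summed to 0.979 to 3.28 in null and 1.04 to 6.95 in WT, with Alb, Ahsg and Fgb at 0. Of 4 fat markers Adipoq, Plin1 and Lep were at 0, and Cidec, which coats lipid droplets, was at 109 to 260 in null and 117 to 179 in WT enterocytes. Markers at 0 do not show that liver or fat cells were absent.

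All 10 pairs among the 5 genes correlated positively over the 9 enterocyte libraries, some closely and some weakly. Pearson correlations of log2(value + 1) are given as a description, and the libraries share genotype, region and preparation. Fbp1 and G6pc had r = 0.79, and 0.83 for deviations from the genotype means. G6pc and Slc37a4 had 0.79 and 0.77, and Fbp1 and Slc37a4 had 0.69 and 0.83. Khk had 0.77 with Fbp1, 0.77 with Slc37a4, 0.67 with Pck1 and 0.65 with G6pc over the 9 libraries. Pck1 had 0.59 and 0.54 with Slc37a4, and lower values with Fbp1 (0.44 and 0.30) and G6pc (0.22 and 0.06). Khk followed the lactase gene Lct closely, with 0.94 and 0.92.

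Over all genes tested, those most like Fbp1 were Fkbp4 (r = 0.968, and 0.875 for deviations from the genotype means), Ces1d (0.964 and 0.902) and Mmd (0.954 and 0.824), each of which fell in null. Fbp1 separates the genotypes and the ranking includes the genotype difference, so a fall of its nearest genes is largely built into their choice. Khk was most like Ifi30 (0.976 and 0.978), Guca2b (0.958 and 0.944) and Peak1 (0.954 and 0.977). Pck1 was most like Glod5 (0.957 and 0.954), Tomm22 (0.954 and 0.948) and Uqcrq (0.953 and 0.947). G6pc was most like Jmjd8 (0.939 and 0.926), Phb (0.935 and 0.915) and 2010001E11Rik (0.924 and 0.942). Slc37a4 was most like Dus1l (0.958 and 0.974), Sdf2 (0.953 and 0.975) and Zswim7 (0.952 in both). None of these 12 genes outside the Fbp1 set passed the test of the genotype difference.

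No gene of fructose uptake and metabolism passed the test in Mfge8 null enterocytes. The 10 genes tested had a median log2 change of -0.21, against 0.00 over all genes. Slc2a5, which encodes GLUT5, averaged 736 ± 152 normalised reads in null and 570 ± 146 in WT enterocytes (log2 0.38, limma adjusted p = 0.370). The log2 change was 0.20 for Slc2a2 (the glucose and fructose transporter GLUT2), -0.17 for Tkfc (triokinase) and -0.44 for Mlxipl (the sugar-sensing factor ChREBP). Sord, which makes fructose from sorbitol and was picked after its values were seen, averaged 777 ± 210 in null and 1246 ± 305 in WT (log2 -0.69, limma adjusted p = 0.0805).

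Of 17 genes of gluconeogenesis and glucose release 1 fell, Fbp1 itself, and none rose, with a median log2 change of 0.03. Pcx, the pyruvate carboxylase that feeds the pathway, had a log2 change of 0.45 and Pck2 one of 0.69, and neither passed by limma. G6pc3 was at 8.52 ± 3.33 normalised reads in null and 8.78 ± 5.00 in WT enterocytes. Of 6 tested genes on the list for glutamine entry to the pathway, Oat fell. Tag levels do not show in which direction its reaction runs. Oat encodes ornithine aminotransferase, and had 537, 423, 379, 334 and 372 normalised reads in Mfge8 null enterocytes, against 1029, 988, 604 and 919 in WT enterocytes. All null libraries lay below all WT libraries. The log2 change of Oat was -1.10 (standard error 0.18, limma adjusted p = 0.00233), and it passed in all 21 alternative settings.

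Of 14 genes of glycolysis, the opposite route, Pklr rose and none fell, with a median log2 change of 0.27. Pklr, the liver and red cell form of pyruvate kinase, had 152, 178, 177, 194 and 154 normalised reads in Mfge8 null enterocytes, against 106, 103, 109 and 92.3 in WT enterocytes. The genotypes did not overlap. Its log2 change was 0.73 (standard error 0.14, limma adjusted p = 0.00994), and it passed in 20 of 21 alternative settings. Gapdh and Eno1, used by every cell, were near 0 in all libraries, so a low value of such a gene here does not show low expression.

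Of 15 regulators of gluconeogenic genes 2 fell and none rose, with a median log2 change of -0.02. Cebpa, a transcription factor of liver and gut metabolism, averaged 65.3 ± 11.4 normalised reads in null and 119 ± 32.7 in WT enterocytes (log2 -0.83, limma adjusted p = 0.0401). Ppara, the fatty acid receptor of the fasting response, averaged 49.0 ± 14.3 in null and 95.3 ± 21.7 in WT (log2 -0.95, limma adjusted p = 0.0292). Both calls held in 11 of 21 alternative settings. Each was lost without any 1 of null 1, null 3, null 4, null 5, WT 1, WT 2 or WT 3, at a limma adjusted p of up to 0.146 for Cebpa and 0.117 for Ppara.

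**Figure D4:**
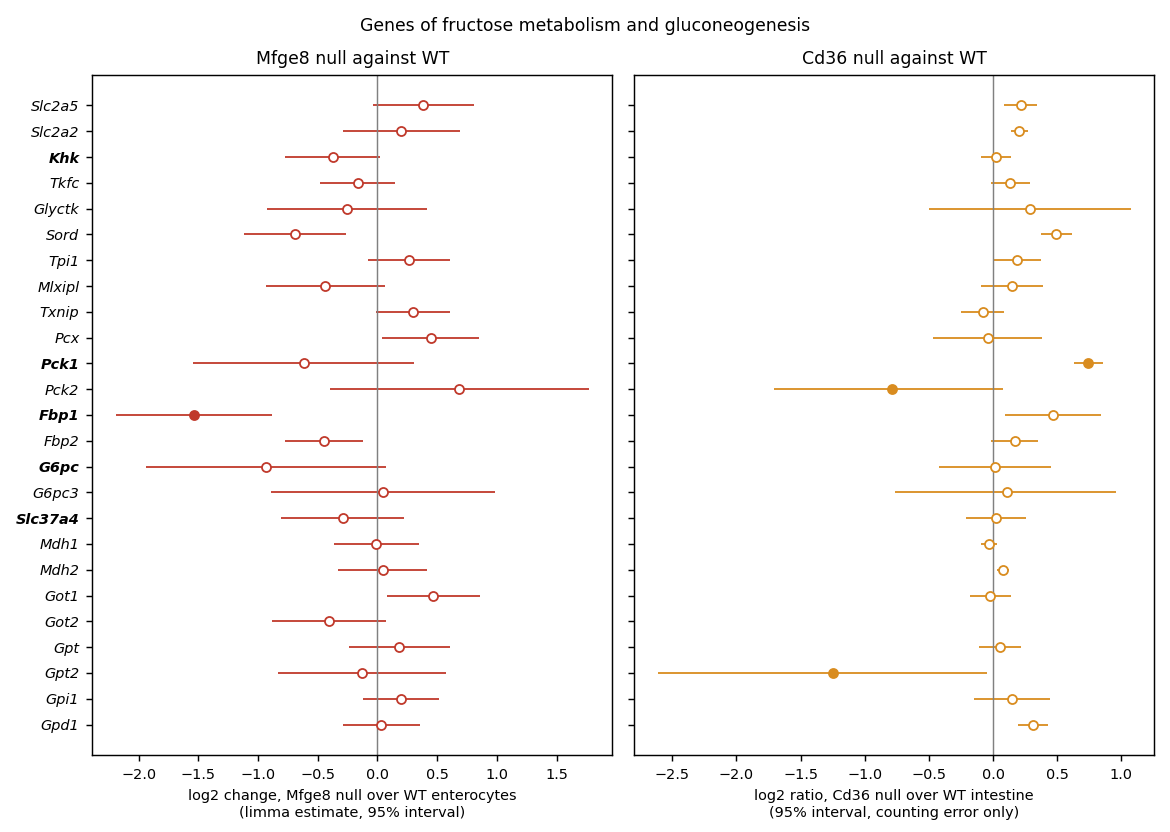
Log2 change in Mfge8 null over WT enterocytes (left, limma estimate with its 95% interval) and log2 ratio in Cd36 null over WT tissue (right, with a 95% interval for counting error only) for the reported genes of fructose metabolism and gluconeogenesis. Filled points passed limma's adjusted p of 0.05 (left) or a 1.5-fold ratio (right), the 5 genes of interest are in bold, and Got2 has no point on the right because it was too low there. On the left Fbp1 at -1.54 is the filled point. On the right the filled points are Pck1 at 0.74, Pck2 at -0.79 and Gpt2 at -1.25.

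The tissue comparison addressed the same genes without Cd36. Pck1 was 1.67-fold higher in Cd36 null tissue, Fbp1 was 1.38-fold higher, and Khk, G6pc and Slc37a4 had ratios of 1.01 to 1.02. With each genotype counted as 1 sample there is no test. A ratio past 1.5-fold was called a difference between the sets of libraries. By that rule 1 of the 5 genes was called, where 10.8% of all 9314 genes were past it in either direction, 4.4% higher and 6.38% lower in null.

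Pck1 had 444, 477 and 451 normalised reads in Cd36 null tissue (replicates 1 to 3), against 325, 249.9, 274 and 239 in WT tissue (replicates 1 to 4). All null libraries lay above all WT libraries, and WT 1 stood above the other WT libraries. The ratio of 1.67 has a 95% interval of 1.54 to 1.81 for counting error only, from 1427 null and 1077 WT reads. A larger ratio was found for 2.56% of genes. The WT libraries of Pck1 differed more than sampling noise gives, their chi-square over its degrees of freedom being 5.39, which 0.215% of genes exceeded. Without WT 1 the Pck1 ratio was 1.80.

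Fbp1 had 42.5, 41.5 and 38.9 normalised reads in Cd36 null tissue, against 30.7, 32.0, 27.0 and 28.7 in WT tissue. Null libraries again lay above all WT libraries. The ratio of 1.38 had an interval of 1.07 to 1.79 and was not past 1.5-fold. In all, 2 of the 5 genes had libraries that did not overlap, where 16.5% of all genes did not and 8.61% were higher in null. The intervals of the same 2 genes excluded 1, as did those of 18.2% of all genes (9.77% of all genes with null higher).

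Khk had 341, 374 and 354 normalised reads in Cd36 null tissue, against 344, 362, 346 and 348 in WT tissue. Its ratio was 1.02, with an interval of 0.938 to 1.10. G6pc had 23.5, 26.6 and 27.8 in Cd36 null tissue, against 29.8, 25.8, 21.8 and 24.6 in WT tissue, a ratio of 1.01 (0.747 to 1.37). Slc37a4 had 87.8, 93.7 and 87.0 in Cd36 null tissue, against 83.6, 94.0, 84.2 and 90.3 in WT tissue, a ratio of 1.02 (0.864 to 1.19). For these 3 genes the genotypes overlapped, and counting error alone still allows a G6pc ratio of 0.747 to 1.37.

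In the tissue comparison 0 of 10 genes of fructose uptake and metabolism were past 1.5-fold, with a median log2 ratio of 0.17, against 0.00 over all genes. Slc2a5 had a ratio of 1.16, Slc2a2 1.15, Tkfc 1.10 and Mlxipl 1.11. Sord, picked after its values were seen, averaged 386 normalised reads in Cd36 null and 274 in WT tissue, a ratio of 1.41 (1.30 to 1.53). Of 16 genes of gluconeogenesis and glucose release Pck1 was higher, and Pck2 (ratio 0.580, interval 0.306 to 1.06) and the alanine aminotransferase Gpt2 (ratio 0.421, interval 0.163 to 0.969) were lower, with a median log2 ratio of 0.06. Pck2 averaged 5.31 normalised reads in Cd36 null and 9.41 in WT tissue, and Gpt2 2.45 and 6.08 in the same order, so both rest on few reads. Pcx had a ratio of 0.973, Fbp2 1.12 and G6pc3 1.08.

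None of 6 glutamine entry genes was past 1.5-fold (median log2 ratio -0.06), and Oat had a ratio of 1.05. Of 14 genes of glycolysis 3 were higher and none lower, with a median of 0.30. These were the phosphofructokinase Pfkl (ratio 2.04), the regulatory enzyme Pfkfb3 (2.09) and the aldolase Aldoc (1.59), at mean levels of 11.03, 17.1 and 21.8 normalised reads in Cd36 null and 5.32, 8.05 and 13.7 in WT tissue. Pklr had a ratio of 1.09. Of 15 regulators 1 was past 1.5-fold higher and 1 lower, with a median log2 ratio of -0.03. The higher was Klf15, a factor of the fasting response (ratio 1.503, interval 0.977 to 2.32). It averaged 16.0 normalised reads in Cd36 null and 10.7 in WT tissue, and its interval includes a ratio of 1. Cebpa had a ratio of 0.975 and Ppara 1.21.

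Other markers also moved between the tissue groups. Of 5 ileal markers 2 were past 1.5-fold lower, 1 was higher and 2 lay within the fold. Fabp6 had 62.9 to 77.7 normalised reads in Cd36 null and 263 to 284 in WT tissue. The ratio was 0.642 for Slc10a2, 0.869 for Slc51a, 0.842 for Slc51b and 3.14 for Fgf15. The 5 summed to 689 to 748 in Cd36 null and 983 to 1046 in WT tissue. The proximal markers Gata4 and Onecut2 had ratios of 1.06 and 1.07. All 4 tuft cell markers tested were past 1.5-fold higher in null (median log2 ratio 1.44). The 5 fibroblast markers summed to 9.05 to 11.7 in Cd36 null and 19.2 to 33.3 in WT tissue. Most of that sum was Dcn (mean 8.43 in Cd36 null and 19.9 in WT tissue), the only 1 of them past the filter. The 6 hepatocyte markers summed to 4.52 to 6.39 in Cd36 null and 1.03 to 5.76 in WT tissue. The 4 fat markers, led by Cidec, summed to 34.1 to 48.0 in Cd36 null and 22.1 to 33.9 in WT tissue. The part of these in the Pck1 difference was not tested. Enterocyte markers summed to 28386 to 29381 in Cd36 null and 28370 to 29159 in WT tissue.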

How the data were processed

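Per the labels' protocols, RNA of isolated enterocytes and of small intestinal tissue was made into forward 3' tag libraries with a module that adds unique molecular identifiers (UMIs) and read single-end. Per the submitters' processing notes, reads went through HISAT2 2.1.0, Trimmomatic 0.38.1, DESeq2 2.11.40 and HTSeq 0.91 (in no stated order), and the build was mm10. Their settings are not given in the sources used here, nor whether UMIs were used or how strand was counted, so intervals cover counting error only. The deposited values are a normalised signal, in 2 tables that the authors scaled separately. Of the values 100% were whole multiples of 1 step per library within 1e-06, so whole reads were recovered. In enterocyte libraries WT 4 and null 3 the size of the step is less sure, and edgeR was therefore also run with them left out.

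Enterocytes were tested with limma 3.58.1 in R 4.3.3 (trend, log2(value + 1), values of at least 5 in at least 4 libraries, 2-sided, Benjamini-Hochberg, threshold 0.05). The pseudocount understates changes of low genes. Exact permutation tests ran over all 126 splits. For tissue, ratios of summed reads over summed size factors have exact conditional binomial 95% intervals (values of at least 5 in at least 3 libraries). The procedures were tested on simulated data. Alternatives included edgeR 4.0.16, DESeq2 1.42.0, other scalings, filters and pseudocounts, a regional score, a replicate block and leaving out libraries.

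The genes, pathway lists and marker lists were chosen with earlier results of these data known. Besides the 5 genes, named genes were the targeted genes, step partners and second forms, list genes that passed (up to 6 per list and comparison), the 3 genes most like each member and 4 region markers. Exceptions, and genes or marker lists given only to describe the samples, are said in place. Gk had no row in the tables used here, and 2 list genes are not reported here. The labels name no design beyond genotype, so the fit has no replicate block. Same-numbered libraries correlated weakly in their deviations. Promoters are from RefSeq on GRCm38.p6.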

Additional observations from a re-analysis of the deposited data

Results flagged for a closer look

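Fbp1 in Mfge8 null enterocyte replicate 3, at 9.99 normalised reads, lay far below the other 4 null libraries, which were at 17.2 to 19.6. Its gap to the nearest library was 0.754 of the whole range of the group. The same library had a G6pc value of 3.995 and a regional score of 0.0238. Without it the Fbp1 change was -1.37 (limma adjusted p = 0.0285). Pck2 in WT tissue replicate 2, at 13.4 normalised reads, lay above the other WT libraries, with a gap of 0.890 of the range. The check covered 42 combinations of gene and group, and chance marks about 1 in 20.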

How the results depend on the processing

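Of 21 alternatives in the enterocyte comparison, Fbp1 kept its direction in 21 and its call in 18 (log2 change -1.85 to -1.23, limma, edgeR or DESeq2 adjusted p of 9.58e-05 to 0.0694). The call was lost with the regional score as a covariate (-1.23, adjusted p = 0.0536), without null 3 and null 5 together (-1.33, adjusted p = 0.0694) and without WT 1 (-1.33, adjusted p = 0.0605). In these 3 settings 0 of the 5 genes passed, and over single left-out libraries the Fbp1 change was -1.85 to -1.33 and 0 to 1 genes of the 5 passed. The cause was not tested. Khk, Pck1 and G6pc stayed below 0 without a call in all 21 settings, over left-out libraries at -0.53 to -0.26, -1.02 to -0.17 and -1.25 to -0.49. Slc37a4 turned to 0.051 with the regional score and was -0.52 to -0.03 over left-out libraries.

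The count of genes that passed was 303, against 147 by limma without a trend, 154 with the regional score, 116 without null 3 and null 5, and 140 to 388 over single left-out libraries (140 without WT 1, 173 without WT 2, 185 without null 3, 199 without null 5). It was 317 by edgeR and 430 by DESeq2. G6pc3 turned to -0.0226 by edgeR, -0.0174 by DESeq2 and -0.0178 with the replicate block, to -0.20 by edgeR without WT 4 and null 3, and ranged from -0.33 to 0.35 over left-out libraries. Fabp6 turned to -0.20 by edgeR, -0.195 by DESeq2, -0.22 with the block, -1.98 with the regional score that holds it and -1.04 without null 3 and null 5, and ranged from -0.60 to 1.95. Slc10a2 turned to -0.0569 with the regional score, and Gata4 ranged from -0.0393 to 0.447 over left-out libraries.

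Same-numbered libraries correlated in their deviations at -0.12, -0.07, 0.21 and 0.09, so the numbers were not read as pairs. With the replicate block 233 genes passed and Fbp1 was at -1.55 (limma adjusted p = 0.0288). The log2 ratio of Fbp1 to Fbp2 differed by -1.33 to -0.91 over left-out libraries (exact permutation p of 0.0179 to 0.0357). In tissue, 1004 of 9314 genes tested were past the fold, against 5281 of 15296 without a filter and 990 to 1309 over left-out libraries. At the lower of the fold thresholds tried, 2582 of 9314 genes passed, 1147 of them higher in null. Of the 5 genes, 2 passed there, Pck1 and Fbp1, both higher in null, so such a pass was common among all genes. Fbp1, G6pc, Pck2 and G6pc3 rest on few reads. Tissue results rest on libraries counted as 1 sample per genotype, and the labels do not say whether each is a separate animal.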
